A study of Mus musculus with 4 samples.

Results

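The genes studied here, 10 that astrocytes turn on as they mature and take up their functions, were followed in single cells of the newborn mouse forebrain, and their rows were found by symbol among the 32285 genes of the feature tables. They were described in 7168 of 17623 kept cells, namely 1078 stem-like cells, 1105 dividing astroglia, 4092 astrocytes and 893 ependymal cells. All mice were C57BL/6 and carried NestinCreERT2 and the tdTomato reporter, and they received tamoxifen in midfetal life and were examined at postnatal day 5. The control libraries were Chd8+/+ and the mutant libraries Chd8+/F, in which Cre removes part of 1 allele of Chd8, a chromatin remodeler, and each genotype had 2 libraries. CreERT2 was driven by Nestin, which is active in neural progenitors, so the sorted tdTomato+ cells were mainly progeny of cells that were Nestin-positive at the time of tamoxifen, and each library pooled several mice. Controls therefore shared Cre, reporter and tamoxifen with the mutants. The labels call the cells neuronal, but 4092 of them carried the astrocyte markers that give the astrocyte class its name. Cell types were assigned to clusters from marker lists that contained none of the 10 genes, and the 10 genes were also kept out of the clustering, so each type name means a class resembling that type, for example astrocyte-like cells.

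Astrocytes arise from radial glia of the ventricular zone and then divide locally, and in the first postnatal weeks they acquire glutamate uptake, water and ion transport and coupling through gap junctions. Ependymal cells, which line the ventricles, come from the same radial glia, and a few radial glia persist as astrocyte-like stem cells of the ventricular-subventricular zone. Several genes on the list are shared by all of these relatives, and some by cells outside the neural lineage.

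The 10 genes have distinct roles. Slc1a2 (GLT-1) and Slc1a3 (GLAST) take up glutamate, and Glul (glutamine synthetase) converts it to glutamine. Aqp4 forms the water channel of astrocyte endfeet, and Gja1 (connexin 43) and Gjb6 (connexin 30) build gap junctions. Gfap is an intermediate filament protein, Aldoc is a glycolytic aldolase, Sparcl1 (hevin) is a secreted protein that promotes synapse formation and Apoe carries lipids. In mm10, as annotated by GENCODE vM21, Gfap lies at chr11:102887336-102900912 and Aldoc at chr11:78322968-78327781. Slc1a2 spans chr2:102658659-102790784, Slc1a3 chr15:8634124-8710764, Glul chr1:153899944-153909723 and Gja1 chr10:56377330-56402513. Gjb6 spans chr14:57123303-57133611, Sparcl1 chr5:104079111-104113733 and Apoe chr7:19696109-19699188. None overlaps another gene of the feature tables on its own strand.

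Promoter sequences of GRCm38.p6 from RefSeq, covering 250 bases before to 50 bases after a start, were matched for 8 of the 10 genes, all but Aqp4 and Sparcl1. Those of Gfap, Slc1a3 and Slc1a2 are shown because Gfap and Slc1a3 differed in opposite directions among astrocytes and because the 2 glutamate transporters differed in their order over cell types. They are the windows chr11:102897151-102897450 on the minus strand, chr15:8710758-8711057 on the minus strand and chr2:102706188-102706487 on the plus strand. The Slc1a2 window belongs to a start listed by RefSeq inside the annotated gene, which begins at 102658659, and the sequence at that beginning was not examined. The Gfap window likewise lies inside the annotated gene, which on its strand begins at 102900912. Capitals mark matches, on either strand, to the STAT motif TTCNNNGAA or the TATA box TATAAA.
Gfap: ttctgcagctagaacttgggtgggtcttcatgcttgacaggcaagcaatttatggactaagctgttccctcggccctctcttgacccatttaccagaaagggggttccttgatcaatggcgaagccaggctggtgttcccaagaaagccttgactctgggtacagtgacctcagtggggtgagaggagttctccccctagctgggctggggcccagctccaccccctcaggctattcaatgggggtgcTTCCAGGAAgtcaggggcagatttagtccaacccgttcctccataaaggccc
Slc1a3: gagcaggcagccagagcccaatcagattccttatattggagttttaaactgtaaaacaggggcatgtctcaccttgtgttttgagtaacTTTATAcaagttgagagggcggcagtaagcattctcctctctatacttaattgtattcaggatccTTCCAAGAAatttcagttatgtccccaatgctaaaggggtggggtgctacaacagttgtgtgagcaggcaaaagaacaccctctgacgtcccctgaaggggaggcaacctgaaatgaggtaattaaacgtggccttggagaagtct
Slc1a2: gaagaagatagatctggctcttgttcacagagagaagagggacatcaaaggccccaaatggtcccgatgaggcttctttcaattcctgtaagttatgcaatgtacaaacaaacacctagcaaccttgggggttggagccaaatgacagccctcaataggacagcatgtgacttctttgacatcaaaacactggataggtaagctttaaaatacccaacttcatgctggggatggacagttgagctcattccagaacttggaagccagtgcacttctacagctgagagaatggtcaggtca
The STAT letters stood in a promoter of 3 of the 8 genes, Gfap, Slc1a3 and Aldoc, and in 8.30% of all 32851 promoters. The TATA letters were found for 2 of the 8 genes, Slc1a3 and Apoe, and in 13.6% of all promoters. The NFI half-site TTGGCA was found for Aldoc and Apoe (14.1% of all promoters) and the SOX letters ACAAAG for Apoe (18.7%). Aldoc has 2 listed starts and Apoe 3, so these genes had more windows to match. The windows of Slc1a2, Glul, Gja1 and Gjb6 held none of the 4 motifs, which says only that these letters are absent there.

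Before results, some facts of the libraries are needed. They held between 46274374 and 79328841 unique molecular identifiers (UMIs), and 2973 to 5710 cells per library passed the filters, with a median of 11497 to 11838 UMIs. Replicate 1 of both genotypes was processed with Cell Ranger 7.0.0 and replicate 2 of both with 5.0.1, by the file headers, and from version 7 this program counts intronic reads by default. Xist, the RNA of the inactive X chromosome, stood at 0.149 and 0.153 CPM (counts scaled to a common library total) in the replicate 1 libraries and at 1633 and 1749 CPM in the replicate 2 libraries. Xist marks female cells, so the replicate 2 libraries held such cells and the replicate 1 libraries next to none. The paper, in contrast, states that its single-cell samples came from male mice. Median mitochondrial shares were 2.18% and 2.60% in replicate 1 and 5.64% and 4.86% in replicate 2. Software version, mitochondrial share and Xist level therefore cannot be told apart in any contrast of the replicates. Chd8 was at 61.7 and 68.7 CPM in control and mutant replicate 1 and at 89.8 and 94.9 CPM in control and mutant replicate 2. Counts from 3′ tags need not cover the removed exons, so these levels do not settle whether the allele was cut. The paper reports less CHD8 protein in tdTomato+ cells sorted from mutant embryos. Kept barcodes shared by 2 libraries were at most 0.303% of the smaller one. In inhibitory neurons, which should lack these genes, Apoe was at 110 and 124 CPM in replicate 1 and 554 and 750 CPM in replicate 2, and low expression there cannot be told apart from RNA released by other cells.

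The members were first ordered over cell types. Levels are CPM of counts summed over the cells of a type in a library, given as mean ± SD over 4 libraries, and they are described without a test, since the types come from the same cells. All 10 genes were higher in astrocytes than in dividing astroglia in 4 of 4 libraries, and all 10 were higher in astrocytes than in ependymal cells in 4 of 4. Against stem-like cells the count was 7 of 10, the others being Slc1a3, Gja1 and Aldoc. How many of all genes met the same rule was not counted, so these counts only describe the members. Together the 10 genes made up 2.88% to 3.03% of all UMIs of astrocytes, 1.57% to 2.22% of those of stem-like cells, 0.781% to 1.52% of those of dividing astroglia and 0.337% to 0.596% of those of ependymal cells. When every cell was thinned to 2000 UMIs, the median astrocyte contained 7 of the 10 transcripts in each library, the median stem-like cell 6 and the median ependymal cell 3 or 4. The median dividing astroglial cell contained 3 in both libraries of replicate 1, 5 in control replicate 2 and 6 in mutant replicate 2.

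**Figure D1:**
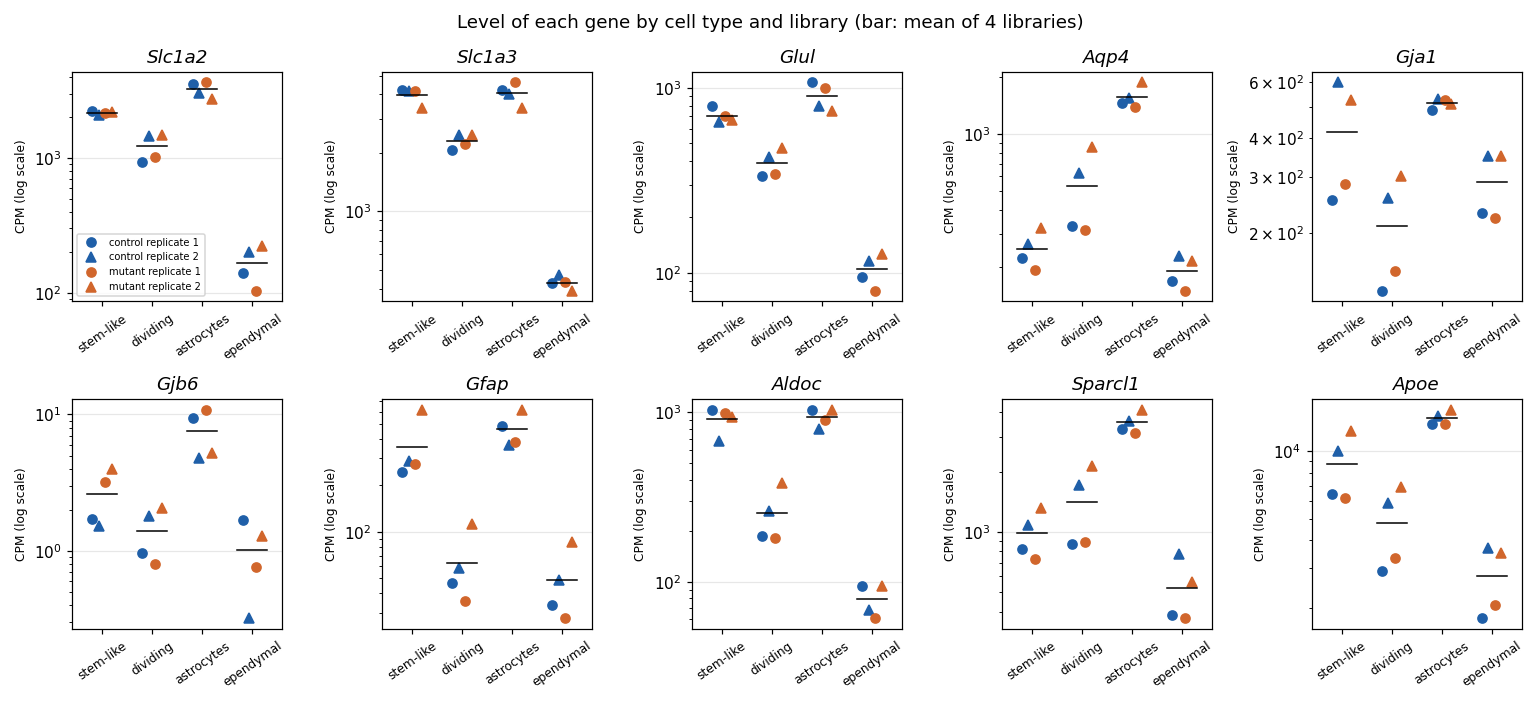
Level of each of the 10 genes in CPM (log axis) in stem-like cells, dividing astroglia, astrocytes and ependymal cells, with 1 point per library and a bar at the mean of 4 libraries. Blue is control, orange mutant, circles replicate 1 and triangles replicate 2, and in dividing astroglia the triangles lie above the circles for all 10 genes.

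The glutamate transporters differed in their order. Slc1a2 in astrocytes was 3524, 3012, 3645 and 2726 CPM in control replicates 1 and 2 and mutant replicates 1 and 2. It was 2171 ± 58.2 CPM in stem-like cells, 1217 ± 284 CPM in dividing astroglia and 167 ± 55.1 CPM in ependymal cells (SD, n = 4). No 2 neighbours in this order overlapped over the 4 libraries, so Slc1a2 separated the 4 types, with a mean of 19.4 times more in astrocytes than in ependymal cells.

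Slc1a3 did not separate astrocytes from stem-like cells. It was 4197, 4007, 4615 and 3388 CPM in astrocytes and 4200, 4170, 4162 and 3390 CPM in stem-like cells, in the same order of libraries. The difference between the 2 types was 0.02 ± 0.09 on the log2 scale (SD, n = 4), and it was above 0 in 1 of 4 libraries. Dividing astroglia had 2307 ± 207 CPM and ependymal cells 430 ± 33.3 CPM, and neither range reached that of the next type. The mean of Slc1a2, in contrast, was 1.49 times higher in astrocytes than in stem-like cells.

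Glul, which works downstream of both transporters, was 903 ± 156 CPM in astrocytes, 707 ± 65.2 in stem-like cells, 393 ± 66.5 in dividing astroglia and 104 ± 21.2 in ependymal cells. It was higher in astrocytes than in stem-like cells within each of the 4 libraries, although the ranges of the 2 types overlapped. With a mitochondrial limit of 5%, Glul was no longer higher in every library.

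The water channel gene was the member that most set astrocytes apart from stem-like cells. Aqp4 was at 1454, 1541, 1392 and 1870 CPM in astrocytes of control replicates 1 and 2 and mutant replicates 1 and 2. In stem-like cells it was 223, 265, 195 and 321 CPM, so all 4 astrocyte values exceeded all 4 stem-like values, by 2.66 ± 0.14 on the log2 scale (SD, n = 4). Dividing astroglia, at 532 ± 263 CPM, lay between these types, and ependymal cells had 191 ± 37.0 CPM. The ranges of stem-like and ependymal cells overlapped, as did those of dividing astroglia and stem-like cells.

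The 2 connexin genes behaved differently from each other and from the rest. Gja1 was 490 to 528 CPM in astrocytes, the narrowest range of a member there relative to its mean, but 254 and 285 CPM in stem-like cells of replicate 1 and 597 and 526 CPM in those of replicate 2. Astrocytes were therefore higher than stem-like cells in 2 of 4 libraries only, both of replicate 1. Ependymal cells retained 289 ± 71.7 CPM of Gja1, 1.78 times less than astrocytes, the smallest gap to ependymal cells among the 10 genes. Gjb6 was rare, with 173, 57, 178 and 68 counts in the astrocytes of the 4 libraries, or 9.3, 4.8, 10.9 and 5.2 CPM. In the other 3 types it had between 1 and 12 counts per library, too few to order these types, and after thinning it was seen in at most 0.913% of their cells against 0.719% to 3.09% of astrocytes. Outside this lineage, fibroblasts had 218 ± 58.5 CPM of Gjb6 and 1210 ± 304 CPM of Gja1, the highest of the 16 named cell types for both genes. These values rest on 18 to 32 fibroblasts a library.

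Gfap was high in astrocytes and stem-like cells and low elsewhere. In astrocytes it was 487, 363, 381 and 619 CPM in control replicates 1 and 2 and mutant replicates 1 and 2, and in stem-like cells 243, 286, 276 and 618 CPM. Dividing astroglia had 63.3 ± 34.4 CPM and ependymal cells 49.1 ± 26.2 CPM, and all 4 values of stem-like cells exceeded those of both. The order of astrocytes and stem-like cells depended on the measure, since CPM was higher in astrocytes in 4 of 4 libraries while the thinned share of cells with a Gfap UMI was lower in 4 of 4, 20.3% to 28.4% against 23.7% to 36.2%. No order is read from this pair. In inhibitory neurons Gfap was seen in 0.716% to 2.55% of thinned cells.

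Aldoc, the glycolytic enzyme, did not differ beyond its spread between astrocytes (941 ± 111 CPM) and stem-like cells (916 ± 160 CPM), with a difference of 0.05 ± 0.16 on the log2 scale. It was lower in dividing astroglia (254 ± 93.9 CPM) and in ependymal cells (79.6 ± 17.5 CPM), and the ranges of the last 2 types did not overlap with each other or with the first 2. The thinned share of cells with an Aldoc UMI was nonetheless higher in astrocytes than in stem-like cells in 4 of 4 libraries. These shares were 72.2% to 81.3% and 63.7% to 75.1%, so the order of this pair depended on the measure.

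The secreted products followed another order. Sparcl1 was 3288, 3612, 3139 and 4098 CPM in astrocytes, and dividing astroglia (1405 ± 626 CPM) stood above stem-like cells (991 ± 262 CPM) within each library. Apoe was 13222, 14302, 13273 and 15329 CPM in astrocytes, 8729 ± 2954 CPM in stem-like cells, 4759 ± 1950 CPM in dividing astroglia and 2767 ± 976 CPM in ependymal cells. For both genes astrocytes did not overlap with any of the other 3 types. Neither is restricted to astroglia, since microglia had 16391 ± 5252 CPM of Apoe and endothelial cells 1056 ± 276 CPM of Sparcl1.

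**Figure D2:**
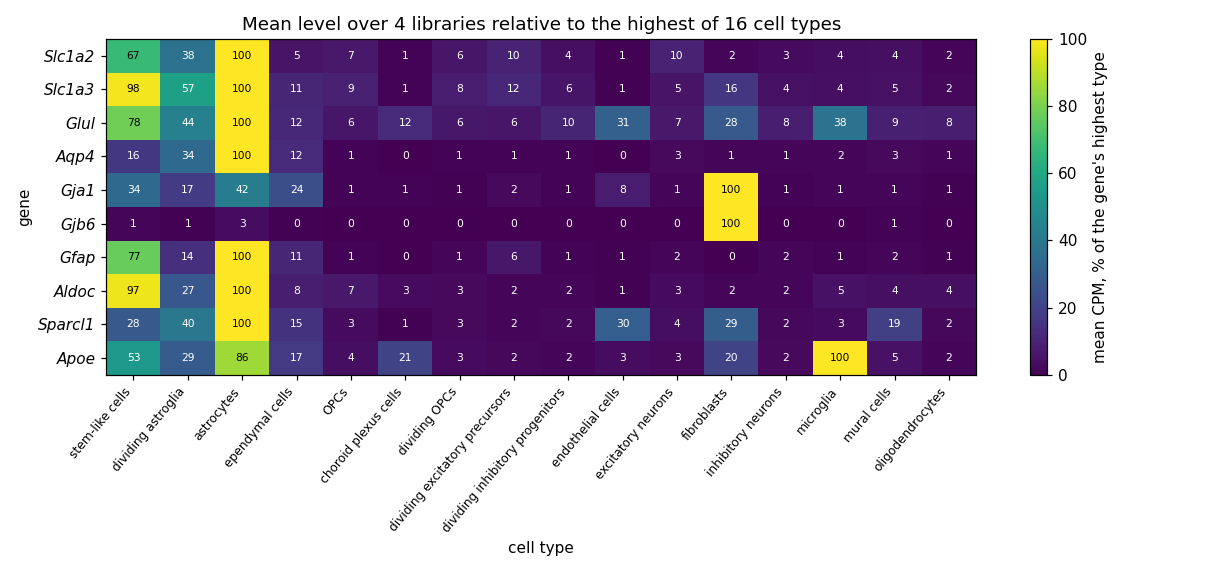
Mean CPM of each gene over 4 libraries in 16 named cell types, as a percentage of that gene's highest type, with the 4 types described here in the first columns. By this mean, astrocytes are the highest type for 7 of the 10 genes, while Gja1 and Gjb6 peak in fibroblasts and Apoe in microglia. For Slc1a3 and Aldoc stem-like cells are close behind and astrocytes were not higher in every library.

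Over the 16 named types, the genes outside the list with the most similar order were sought by the median Spearman correlation over the 4 libraries, among 13693 genes. The points are cell types of 1 library and share its depth. Slc1a2 was most like Mmd2 (0.94), Ndp (0.91) and Slc13a5 (0.89), Slc1a3 like Gm6145, 2810459M11Rik and Megf10 (all 0.88), and Glul like Pon2 (0.84), Dapp1 (0.80) and Gstm1 (0.79). Aqp4 was most like Slc14a1 and Pla2g7 (both 0.85) and Mlc1 (0.84), Gja1 like Mcc (0.84), Smad6 and Gstm1 (both 0.83), and Gjb6 like Flnc (0.82), Igfbp5 (0.81) and Slc4a4 (0.80). Gfap was most like Cbs (0.85), Kcne1l (0.84) and Arhgef26 (0.83), and Aldoc like Ttyh1 (0.86), Abhd3 (0.84) and Cbr3 (0.82). Sparcl1 was most like Htra1 (0.92), Lxn (0.89) and Tnfrsf19 (0.88), and Apoe like Psap (0.90), Cst3 (0.87) and Sdc4 (0.85). Some of these medians cover a wide range over libraries, such as 0.46 to 0.86 for Gjb6 with Flnc and 0.47 to 0.90 for Aldoc with Abhd3. Gjb6 was near 0 in most types, so its order rests on few counts. Slc4a4 and Htra1 are also on the astrocyte marker list that named the types. Among the members themselves the closest pairs were Slc1a2 with Slc1a3 and Slc1a2 with Gfap (both 0.81), and the least alike Slc1a2 with Glul (0.20).

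The astrocytes consisted of 4 clusters, and 1 of them stood apart in several members although none had been used to form it. This cluster held 915 of the 4092 astrocytes, and it was the one with the most Gfap, so Gfap chose it and is given as a description only. Gfap was 1464 ± 302 CPM in it and 117 ± 17.3 CPM in the other astrocytes (SD, n = 4). Aqp4 was 2831, 2661, 2866 and 3022 CPM inside the cluster and 1059, 1096, 1091 and 1182 CPM outside it, so no value overlapped, and Sparcl1 was 4961 ± 713 CPM inside and 2973 ± 82.3 CPM outside. Slc1a3 went the other way, with 2587 ± 240 CPM inside and 4530 ± 465 CPM outside, and so did Slc1a2, with 2411 ± 214 and 3491 ± 447 CPM. The log2 differences of Aqp4, Sparcl1, Slc1a3 and Slc1a2 were 1.36 ± 0.06, 0.73 ± 0.19, -0.81 ± 0.20 and -0.53 ± 0.19, each of the same sign in 4 of 4 libraries. Glul, Gja1, Aldoc and Apoe differed by less, from -0.25 to -0.06 on average. Gjb6 was lower inside the cluster in 4 of 4 libraries, by -1.48 ± 0.61, but on only 8 to 16 counts a library there. The remaining astrocytes were mainly in 1 cluster of 1779 cells, 99.6% of them from replicate 1, and 1 of 1271 cells, 7.16% of them from replicate 1, so those 2 clusters followed the replicate number and the Gfap-high cluster was the large one shared by all libraries. The last cluster, of 127 cells with a median of 4179 UMIs, had still less of the transporters, with 1444 CPM of Slc1a3 and 1247 CPM of Slc1a2 over all its cells against 2569 and 2380 CPM in the Gfap-high cluster, and 165 CPM of Gfap. Low transporter levels were thus not particular to the Gfap-high cluster.

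**Figure D3:**
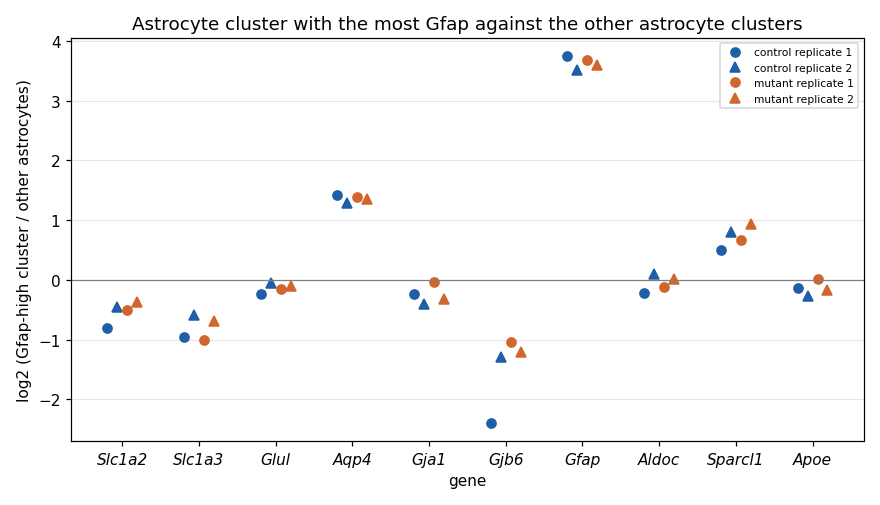
Log2 ratio of CPM in the Gfap-high astrocyte cluster to CPM in the other astrocyte clusters for each gene, 1 point per library (blue control, orange mutant, circles replicate 1, triangles replicate 2). Gfap, Aqp4 and Sparcl1 lie above 0 in all 4 libraries and Slc1a2, Slc1a3, Glul, Gja1 and Gjb6 lie below 0 in all 4.

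A split of the whole astrocyte class by Gfap in single cells, without regard to the clusters within it, gave values for the same genes. Both groupings draw on the same cells and on Gfap, so directions that they share are not separate support. After thinning, 20.3% to 28.4% of astrocytes of a library had a Gfap UMI, and in those cells Aqp4 was 2594 CPM against 1097 CPM in the astrocytes without one, averaged over libraries. The log2 difference was 1.23 ± 0.15 for Aqp4, 0.64 ± 0.09 for Sparcl1, 0.25 ± 0.13 for Apoe, 0.24 ± 0.11 for Gja1, 0.20 ± 0.12 for Aldoc and -0.46 ± 0.06 for Slc1a3 (SD, n = 4), each with 1 sign in 4 of 4 libraries. The split and the cluster had the same direction for Aqp4, Sparcl1 and Slc1a3 in 4 of 4 libraries. They differed for Gja1, which was higher in the split and lower in the cluster in 4 of 4, and for Apoe, which was higher in the split in 4 of 4 and in the cluster in 1 of 4. Slc1a2 differed by -0.035 ± 0.09 in the split, higher in 2 of 4 libraries, against lower in 4 of 4 in the cluster. In stem-like cells the split gave 0.76 ± 0.39 for Aqp4 and -0.27 ± 0.25 for Slc1a3, again with 1 sign in 4 of 4 libraries. Sparcl1 (0.29 ± 0.11), Gja1 (0.28 ± 0.33) and Slc1a2 (0.16 ± 0.10) were also higher there in 4 of 4. For Slc1a2 this is opposite to the Gfap-high astrocyte cluster. Glul, Aldoc and Apoe had no common sign.

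The stem-like and ependymal classes each held 2 clusters, whose levels are given over the pooled cells of all libraries. The larger stem-like cluster (963 cells) had 8201 CPM of Apoe, 380 of Gja1 and 62.4 of Foxj1, a regulator of motile cilia, while the smaller one (115 cells) had 3385, 135 and 2.0 CPM of these genes. Apoe and Gja1 were higher in the larger cluster in each of the 4 libraries. Slc1a3 (4062 and 4263 CPM) and Aldoc (960 and 950 CPM) had no common direction, since Aldoc was 644 CPM in the larger and 905 CPM in the smaller cluster of control replicate 2 and 973 and 521 CPM in those of mutant replicate 2, where the smaller cluster had 10 cells. The larger ependymal cluster (734 cells) had 217 CPM of Aqp4 and the smaller (159 cells) 35.1 CPM. Ependymal markers summed to 281 and 305 CPM in stem-like cells of replicate 1 and to 769 and 844 CPM in those of replicate 2, against 10408 to 12438 CPM in ependymal cells, and 11 of their 12 markers had a count in every stem-like library.

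The genotype comparison asks whether a midfetal Chd8 mutation changed these genes. In none of the 4 types did any of the members differ between mutant and control libraries in the fit across all genes with edgeR's quasi-likelihood test. Of all genes tested, 0 of 12520 in stem-like cells, 0 of 13153 in dividing astroglia, 0 of 14896 in astrocytes and 0 of 14006 in ependymal cells passed an adjusted p of 0.05 (0% in each). At an unadjusted p under 0.05 there were 11, 4, 11 and 20 genes, and DESeq2 also called 0 genes in each type, with 6, 8, 10 and 10 at the unadjusted level. With the replicate number as a block these unadjusted counts were 447, 454, 545 and 580, and 19, 0, 14 and 8 genes passed the adjusted threshold, none of them a member. Without the block the unadjusted counts were far below what a threshold of 0.05 gives when nothing differs. In that fit the difference between replicates is part of the spread, so a missing call does not show equal levels. The 10 members were tested in astrocytes and dividing astroglia and 9, all but Gjb6, in the other types. Their median log2 difference between mutant and control was 0.05 in astrocytes, 0.22 in dividing astroglia, 0.06 in stem-like cells and -0.09 in ependymal cells, beside 0.00, 0.01, 0.00 and 0.00 over all genes. The labels do not say that libraries are separate litters or batches, so p-values measure the spread between these libraries.

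In astrocytes the log2 differences of the members ran from -0.10 ± 0.30 for Glul to 0.22 ± 0.34 for Gfap (SE). Within replicate 1 and within replicate 2, the log2 ratio of mutant to control was 0.05 and -0.14 for Slc1a2, 0.14 and -0.24 for Slc1a3, and -0.06 and 0.28 for Aqp4. These pairs disagreed in sign, and 7 of the 10 members did so in astrocytes. Glul was lower in the mutant in both pairs (-0.10 and -0.09), and Apoe (0.01 and 0.10) and Gjb6 (0.22 and 0.13) were higher in both. In dividing astroglia 5 members, Apoe, Gja1, Glul, Slc1a2 and Sparcl1, were higher in the mutant of both pairs, with Gja1 at 0.21 and 0.23 and Apoe at 0.19 and 0.24. In ependymal cells Aqp4 (-0.17 and -0.091) and Sparcl1 (-0.054 and -0.46) were lower in both, and Gja1 was 223 and 231 CPM in mutant and control of replicate 1 and 351 CPM in both of replicate 2. How many of all genes had the same sign in both pairs was not counted, so these counts only describe the members.

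Gfap had the highest estimate of the members tested in each of the 4 types, and 1 library set it. In stem-like cells the level was 243 and 286 CPM in the control libraries and 276 and 618 CPM in the mutant libraries, a log2 difference of 0.73 ± 0.43 (SE, unadjusted p = 0.155, adjusted p near its maximum). The estimates in dividing astroglia, astrocytes and ependymal cells were 0.51 ± 0.62, 0.22 ± 0.34 and 0.43 ± 0.59. In each type mutant replicate 2 was the highest library, and without it the estimates were 0.08, -0.58, -0.14 and -0.59 in stem-like cells, dividing astroglia, astrocytes and ependymal cells. Within replicate 1 the log2 ratio of mutant to control was 0.18 in stem-like cells, -0.38 in dividing astroglia, -0.35 in astrocytes and -0.28 in ependymal cells, and within replicate 2 it was 1.11, 0.96, 0.77 and 0.81. In inhibitory neurons Gfap was at 2.17, 7.34, 2.2 and 21.9 CPM in the same order of libraries, so mutant replicate 2 was also highest there, and the part of this in the other types was not tested.

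**Figure D4:**
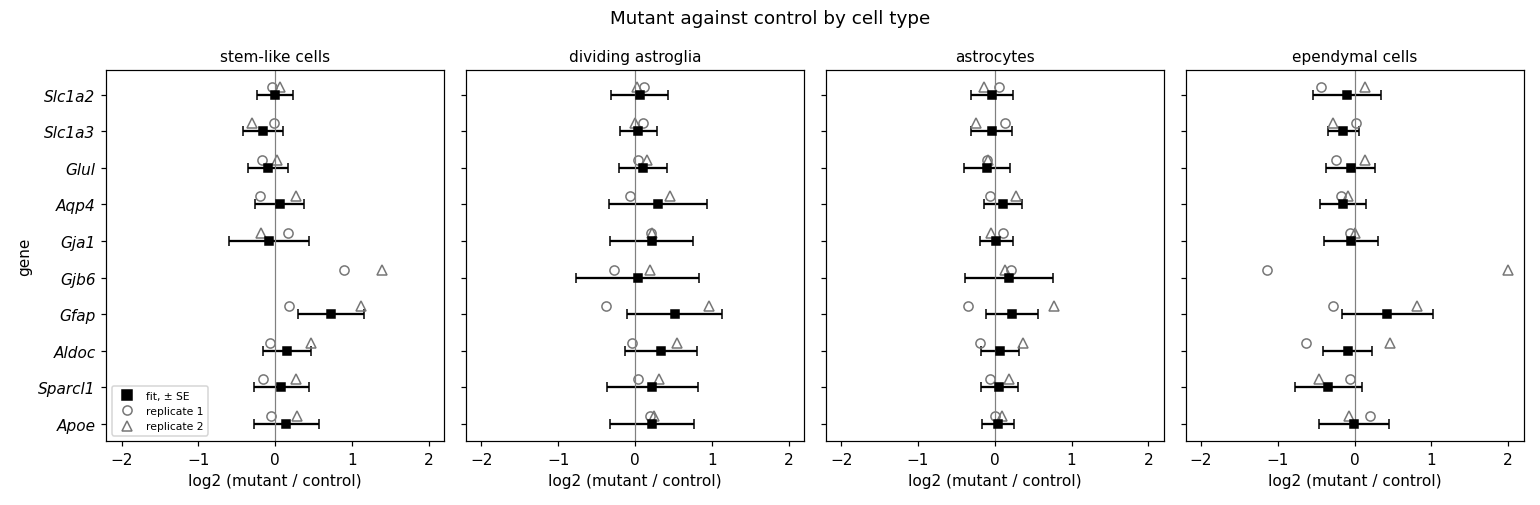
Log2 ratio of mutant to control for each gene in 4 cell types, with black squares for the edgeR estimate ± SE and open symbols for the ratio within replicate 1 (circles) and replicate 2 (triangles). For Gfap the triangles lie at 0.77 to 1.11 and the circles at -0.38 to 0.18, and Gjb6 was not fitted in stem-like and ependymal cells.

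Whether the genotype difference itself differed between astrocytes and each other type was tested as an interaction with library as a term. No gene passed in any of the 3 comparisons (0% of 14049, 13773 and 14983 genes for stem-like cells, dividing astroglia and ependymal cells, with 152, 98 and 131 genes at an unadjusted p under 0.05). Gfap's mutant-to-control difference was 0.43 ± 0.23 higher in stem-like cells than in astrocytes (SE, unadjusted p = 0.097). When the replicate number by cell type, which is also the software version, was added as a term, this difference was 0.42 ± 0.09 with an adjusted p of 0.0043, 1 of 10 members called beside 0.242% of all genes. Of 13 tested markers of other cell types 1 was called higher and 2 lower there, and 1 of 22 genes of radial glia and immature astroglia was lower. Such a fit has nearly as many coefficients as summed counts, which limits what its calls can show. The estimate without that term depended on single libraries, at 0.10 without control replicate 1, 0.73 without control replicate 2, 0.67 without mutant replicate 1 and 0.21 without mutant replicate 2, and none of these passed. The difference was above 0 within both replicates, as the within-replicate ratios of Gfap in the 2 types given above show. No other member was called in that fit or in the blocked fits of the single types, whose calls came to 19 genes in stem-like cells (0.152%), 14 in astrocytes (0.094%), 8 in ependymal cells (0.0571%) and 0 in dividing astroglia.

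The share of astrocytes in the Gfap-high cluster was 19.1% and 26.4% in the control libraries and 14.5% and 32.5% in the mutant libraries of replicates 1 and 2. The groups overlapped, and with 2 libraries against 2 an exact permutation test cannot go below p = 0.333. Within that cluster alone Gfap differed by 0.16 ± 0.32 between genotypes and in the other astrocytes by 0.15 ± 0.26 (log2, SE).

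The 2 replicates differed far more than the genotypes, and their contrast is reported because it limits what can be read from these genes. Between replicate 2 and replicate 1, 46.7% of genes differed in astrocytes, 45.2% in dividing astroglia, 36.8% in stem-like cells and 31.7% in ependymal cells at an adjusted p of 0.05. In astrocytes 3 of 10 members were lower in replicate 2, namely Gjb6 (-1.01 ± 0.20, SE), Glul (-0.45 ± 0.10) and Slc1a2 (-0.34 ± 0.11), and none was higher, beside 26.6% of all genes lower. In dividing astroglia 9 of 10 members were higher in replicate 2, all but Gjb6, beside 20.1% of all genes, and their log2 differences ran from 0.28 ± 0.10 for Slc1a3 to 1.28 ± 0.15 for Aqp4. In ependymal cells 7 of 9 were higher (12.5% of all genes), led by Gfap (1.15 ± 0.22) and Apoe (0.93 ± 0.12). In stem-like cells 5 of 9 were higher (15.5% of all genes), led by Gja1 (1.0 ± 0.14). The stem-like result depended on the cells chosen. At a clustering resolution of 2 only 2 of 9 members were called, beside 2277 of all 10812 genes, so the members were called about as often as all genes. Gfap was higher and Glul lower there, with Gja1 at -0.013 and Aqp4 at -0.27, and only 27 and 12 stem-like cells remained in the replicate 2 libraries. In dividing astroglia 4 of 9 members were called at that resolution, beside 4608 of all 12400 genes, with Glul at -0.017 and Slc1a3 at -0.048. Lower genes made up 21.3%, 25.1% and 19.2% of all genes in stem-like cells, dividing astroglia and ependymal cells, where no member was called lower. With genotype as a term 35.3%, 43.0%, 47.5% and 32.3% of genes were called in stem-like cells, dividing astroglia, astrocytes and ependymal cells, and 6, 8, 3 and 7 members. Single libraries mattered in this count, which was 7 in astrocytes without control replicate 2 and 3 in stem-like cells without mutant replicate 1. In a test of whether the replicate difference itself differed from that in astrocytes, 6 members were called in stem-like cells, 10 in dividing astroglia and 7 in ependymal cells, beside 5.25%, 21.6% and 9.23% of all genes.

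The values that moved with this contrast were several. Astrocyte markers, a list of 16 genes without members, summed to 2267 and 2535 CPM in dividing astroglia of replicate 1 and to 3833 and 4705 CPM in those of replicate 2, while in astrocytes the range was 7200 to 7915 CPM. Other lists went the other way in dividing astroglia. Inhibitory neuron markers summed to 370 and 405 CPM in replicate 1 and to 127 and 88.5 CPM in replicate 2 (control and mutant). Stem-like markers summed to 1062 and 956 CPM in replicate 1 and to 656 and 615 CPM in replicate 2. Apoe in inhibitory neurons was 110 to 124 CPM in replicate 1 and 554 to 750 CPM in replicate 2, whereas in dividing astroglia it was 2913 and 3326 CPM in replicate 1 and 5865 and 6932 CPM in replicate 2. When the members were kept among the clustering genes, the dividing astroglia fell from 240 to 292 cells a library to 161 to 229. There 4 of 9 members were called in the replicate contrast, beside 4484 of all 12311 genes. Over 13140 genes of astrocytes the replicate difference had a median of 0.39 for genes with under 5 kb of intron, 0.16 for 5 to 50 kb and -0.57 for over 50 kb on the log2 scale. Slc1a2 and Slc1a3 have 119 and 68.1 kb of intron, Sparcl1, Aqp4 and Gja1 31.7, 15.3 and 14.9 kb, Gfap, Gjb6 and Glul 9.36, 7.64 and 6.46 kb, and Aldoc and Apoe 1.55 and 0.942 kb. The part of each of these in the members' differences was not tested.

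**Figure D5:**
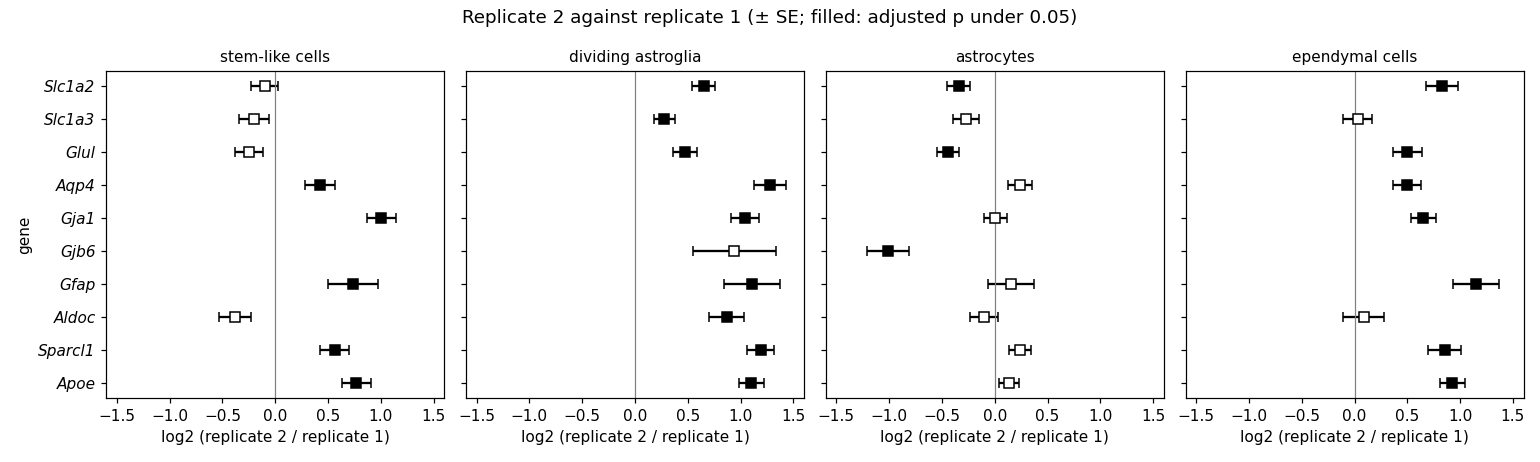
Log2 ratio of replicate 2 to replicate 1 for each gene in 4 cell types, edgeR estimate ± SE, with filled squares for an adjusted p under 0.05 and open squares otherwise. All 9 filled squares of dividing astroglia lie between 0.28 and 1.28, and the 3 filled squares of astrocytes lie between -1.01 and -0.34.

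Other genes of astrocyte function were taken as lists. Between genotypes in astrocytes, 0 of 22 tested genes of ion, transmitter and water transport, 0 of 26 of glutamate, glycogen and lipid metabolism, 0 of 19 synapse-forming and secreted proteins, 0 of 18 reactive astrocyte genes and 0 of 22 genes of radial glia and immature astroglia passed, with medians of 0.08, -0.01, -0.01, 0.11 and 0.11 on the log2 scale. No gene of these lists passed in the other 3 types either, at 0% of all genes, and in astrocytes none of them reached an unadjusted p under 0.05. With the replicate block still none of them passed, while 1, 1, 0, 2 and 0 genes of these lists had an unadjusted p under 0.05 in astrocytes. A list of markers of neurons, oligodendrocyte precursors, microglia and vascular cells had 0 of 14 genes past the threshold in astrocytes, also with the block, where 6 of them had an unadjusted p under 0.05. With the block 2 of 13 of these markers passed in stem-like cells and 1 of 12 in ependymal cells.

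Between replicates, the shares of all genes called higher and lower in replicate 2 were 20.1% and 25.1% in dividing astroglia and 20.1% and 26.6% in astrocytes, and the lists are read against them. Of 26 tested metabolic genes in dividing astroglia, 20 were higher in replicate 2 and 0 lower. Their median was 0.68 beside 0.02 over all genes, and in astrocytes 6 were higher and 3 lower. The transport list had 15 higher and 2 lower of 22 in dividing astroglia and 3 higher and 6 lower in astrocytes. The secreted list had 9 higher and 4 lower of 17 in dividing astroglia and 3 higher and 7 lower of 19 in astrocytes, and the reactive list 7 higher and 0 lower of 15 and 6 higher and 2 lower of 18. Several of these counts, such as the 4 lower of 17 and the 3 higher of 19 secreted genes, lie near the shares over all genes. Radial glia genes were 7 higher and 3 lower of 22 in dividing astroglia and 2 higher and 10 lower in astrocytes, with medians of 0.16 and -0.21. The list of other cell types had 3 higher and 5 lower of 12 in dividing astroglia and 4 higher and 6 lower of 14 in astrocytes. Several genes of these lists are also astrocyte markers that named the classes.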

How the data were processed

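Single-cell RNA-seq was made by the authors from FACS-sorted tdTomato+ live cells of the P5 forebrain on a 10x droplet platform. The deposited counts are whole numbers of UMIs per gene and barcode, 1 filtered matrix per library, not normalized. Per the file headers they came from Cell Ranger 7.0.0 (replicate 1) and 5.0.1 (replicate 2), while the submitters' processing notes give Cell Ranger 3.0 and mm10. Doublets called by Scrublet (0.202% to 2.79% of cells) were kept, and removed as an alternative.

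Barcodes were dropped if they had fewer than 2000 or more than 40000 UMIs, fewer than 1000 genes, or a mitochondrial share above 10%, which left 17623 of 27742. Scanpy 1.11.5 clustered them on 2000 variable genes without the members, z-scored per library, with 30 components, 15 neighbours and a resolution of 1 (Leiden), which gave 30 clusters. There were 15 marker lists, including a list of dividing genes. A cluster was named for the best of the others if at least 3 markers were detected and the mean score was at least 2.4. An astrocyte cluster that scored at least 3 on the dividing list was called dividing astroglia, and other types likewise. The dividing astroglia clusters scored 2.48 and 2.60 on the astrocyte list, near that minimum of 2.4. Where another list held more of the cluster's 10 leading genes and scored within 25% of the best, that list gave the name. The larger stem-like cluster, of 963 cells, was named in this way, since its best score, 3.40, was on the ependymal list. This naming rule was set after the cells were examined, and 2 clusters stayed unnamed.

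Counts were summed per library and type. Genes passing filterByExpr were tested with edgeR 4.0.16 in R 4.3.3 (quasi-likelihood, TMM, prior count 2), with genotype as the only term, and p-values were adjusted by Benjamini-Hochberg over all tested genes, with a threshold of 0.05. SE is the absolute log2 change divided by the square root of F. DESeq2 1.42.0, other filters and scalings, leave-one-out, a replicate term and 4 other cell selections were alternatives, and the scripts were tested on simulated data. Precision is limited by 2 libraries a group and by depth for Gjb6.

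The members and lists were chosen with earlier results of these data known. Named genes are the 10 members, Chd8 and Xist, and for each member the 3 genes most like it over cell types. From each list, up to 3 genes past the threshold with the largest change could be named, and the lists are given here by their counts. Foxj1 was named after its values were seen.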

Additional observations from a re-analysis of the deposited data

Results flagged for a closer look

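The difference between replicates was compared between cell types in a test added after the data were seen, an edgeR interaction of replicate number and type with library as a term. Counted with its sign, the difference of replicate 2 from replicate 1 was higher in dividing astroglia than in astrocytes for all 10 members. Of all genes, 21.6% were called in this test. In astrocytes the difference was called below 0 for Gjb6, Glul and Slc1a2, so a higher value need not be larger in size. The log2 differences of the replicate differences were 0.92 for Glul, 1.0 for Slc1a2, 0.95 for Sparcl1, 0.96 for Apoe, 1.04 for Gja1, 0.96 for Aldoc, 0.95 for Gfap, 2.05 for Gjb6, 0.56 for Slc1a3 and 1.04 for Aqp4, with SEs of 0.05 to 0.09 except 0.50 for Gjb6. Between ependymal cells and astrocytes 7 members were called, beside 9.23% of all genes, with 0.93 for Glul, 1.16 for Slc1a2, 0.58 for Sparcl1, 0.77 for Apoe, 0.63 for Gja1, 0.97 for Gfap and 0.28 for Slc1a3. Between stem-like cells and astrocytes 6 members were called, beside 5.25% of all genes, with 0.27 for Slc1a2, 0.35 for Sparcl1, 0.65 for Apoe, 1.02 for Gja1, -0.26 for Aldoc and 0.57 for Gfap. Software version, mitochondrial share and Xist level, which marks female cells, move with the replicate number and cannot be told apart.

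Members were also found in cells outside the comparisons. In an unnamed cluster of 608 cells, the 10 members summed to 3078 CPM, of which 1239 CPM was Apoe, 970 CPM Slc1a3 and 444 CPM Slc1a2. In an unnamed cluster of 352 cells with low UMI counts they summed to 893 CPM.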

How the results depend on the processing

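The count of members that differed between genotypes was 0 of the members tested in each of the 4 types under all alternatives run. With the replicate number as a block, 19, 0, 14 and 8 genes passed in stem-like cells, dividing astroglia, astrocytes and ependymal cells in place of 0, none a member, and the interactions gave 34, 42 and 0 genes for stem-like cells, dividing astroglia and ependymal cells against astrocytes, of which 1 was a member, Gfap. The block changed no other call of a member. Same-numbered libraries deviated together, with correlations of 0.81 to 0.89 over genes of each type, but only 2 pairs exist and the labels do not say what a number shares. The replicate contrast depended more on the cells chosen. The calls over all genes, which also fell in these settings, are given in brackets. In stem-like cells 5 of 9 members were called (4609 of 12520 genes) and 3 of 9 with DESeq2 (2727 of 12520). There were 3 of 9 with the 5% mitochondrial limit (3556 of 12017) and 2 of 9 at a resolution of 2 (2277 of 10812). In dividing astroglia 9 of 10 were called (5947 of 13153) and 5 of 9 with that limit (4653 of 12431). There were 4 of 9 at that resolution (4608 of 12400) and 4 of 9 with members among the clustering genes (4484 of 12311). In ependymal cells 7 of 9 were called (4441 of 14006) and 4 of 9 with that limit (3510 of 13385). Leaving out each library gave 3 to 6, 7 to 8, 2 to 7 and 5 to 7 members in stem-like cells, dividing astroglia, astrocytes and ependymal cells. The 7 in astrocytes came without control replicate 2 and the 3 in stem-like cells without mutant replicate 1. Leaving out a library gave at most 3 interaction calls over all genes, none a member. Over all genes the replicate counts were 4609 in stem-like cells (2277 at a resolution of 2, 2727 with DESeq2) and 4441 in ependymal cells (2750 with DESeq2), and leave-one-out gave 2582 to 4515, 3769 to 6301, 4210 to 8546 and 2653 to 5391 in the 4 types. Some replicate differences changed sign. At a resolution of 2 Gja1 and Aqp4 in stem-like cells were -0.013 and -0.27, and Glul and Slc1a3 in dividing astroglia -0.017 and -0.048. Slc1a3 was also -0.016 there with members among the clustering genes, and Aqp4 in ependymal cells was -0.045 with the 5% limit. For Gfap between genotypes, leave-one-out gave 0.08 to 1.18 in stem-like cells, -0.58 to 1.12 in dividing astroglia, -0.14 to 0.50 in astrocytes and -0.59 to 1.01 in ependymal cells. Leave-one-out of the difference of Gfap's genotype effect from astrocytes gave -0.46 to 0.57 in dividing astroglia and -0.44 to 0.57 in ependymal cells. It was -0.014 in dividing astroglia with members among the clustering genes, and in ependymal cells -0.41 with the 5% limit and -0.14 without called doublets. The cause of these changes was not tested. The counts of members higher in astrocytes stayed within 1.5 times, at 5 to 7 against stem-like cells, 10 against dividing astroglia and 9 to 10 against ependymal cells. The members counted against stem-like cells changed, however. Gfap was not among them in any of the 4 other cell selections and Glul not with the 5% limit, while Gja1 was at a resolution of 2. By the thinned share of cells Aldoc was among them, and Gfap and Apoe were not. Depth limits Gjb6 most.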
